A study of Mus musculus with 8 samples.

Results

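The 51 mouse genes described here each carried 25 or more m6A-eCLIP sites in the αTC1-6 alpha cell line. They were chosen by counting the deposited sites that lay in the mm10 RefSeq span of exactly 1 protein-coding gene on a nuclear chromosome, which gave 31382 of 33774 sites in 6335 genes. Peg10, Zim1, Irs2 and Gcg were left out by rule, of which Gcg, with 23 sites, lay under the threshold in any case. The 51 genes held 1583 sites, or 5.04% of the sites so named, with a median of 29 per gene against 3 over all genes with a site. The number of sites chose these genes and is a description of them, not a result.

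N6-methyladenosine (m6A) is a methyl mark that the METTL3 and METTL14 enzyme complex writes on adenosines of messenger RNA, mostly within a short sequence around GGAC. It is known to lie densely in long internal exons and around stop codons, and reader proteins that bind it influence splicing, translation and decay. In m6A-eCLIP an antibody against m6A is fixed to RNA with ultraviolet light, and the crosslinked position is read out as a site. Which RNAs carry many such positions depends on both the mark and the amount of RNA, which is why Input libraries, made without selection by the antibody, stand beside the immunoprecipitated (IP) libraries.

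αTC1-6 is an established line of mouse pancreatic alpha cells. All cells received siRNA, either against Mettl14 (M14KD) or with a scramble sequence (SCR). There were 2 M14KD libraries (replicates 3 and 4) and 2 SCR libraries (replicates 1 and 2) of IP, and the same of Input. The line is clonal and a knockdown leaves some target. Nothing in the labels says that replicates were separate cultures, so p-values measure the spread between these libraries, which may be technical. Summed site counts were 10554570 and 10207383 in M14KD IP, 10918559 and 10573976 in SCR IP, 3614519 and 3438530 in M14KD Input, and 3616603 and 3637740 in SCR Input. Of alpha cell genes, glucagon (Gcg) had 57981 and 57399 CPM in M14KD Input against 51554 and 48363 in SCR Input, where CPM are counts scaled by the total over all sites, and Ttr, Irx2 and Pcsk2 had sites too. No named site was analysed here for the beta, delta and PP cell genes Ins1, Ins2, Pdx1, Nkx6-1, Sst, Hhex and Ppy, which in a table of called sites sets no limit on their RNA. These marker genes were chosen after the data had been seen. Mettl14 itself had 2 sites, with 42 and 25 counts in M14KD IP against 78 and 81 in SCR IP, and 32 and 22 in M14KD Input against 64 and 44 in SCR Input. These groups did not overlap, and the edgeR quasi-likelihood test over all genes gave log2 fold changes of -1.18 in IP (SE 0.24, adjusted p = 0.11) and -0.96 in Input (SE 0.27, adjusted p = 0.26).

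Sequence could be read only where a site lay in a promoter window of RefSeq (GRCm38.p6, the mm10 assembly). A window runs from 250 bases before to 50 bases after an annotated start of a gene. In Tsc22d1, Gnas and Luzp1 the start lay well inside the gene's span, so it was not the 5′ end of the span. Of the 51 genes 42 had such a window, and 10 sites of 7 genes lay in one. These stretches of at most 30 bases are shown because they are the only sites of these genes whose bases were at hand, and capitals mark the site bases, on the strand of the gene.
Tsc22d1, chr14:76504533-76504559, plus strand: ccgagtAggaccgagcTgctgcaGacg
Sephs2, first site, chr7:127274041-127274069, minus strand: gcgctccgacaggcAgcgtggctcgagtc
Sephs2, second site, chr7:127274010-127274031, minus strand: ggctcgcgtggttgAtcatctc
Tmcc2, chr1:132391436-132391464, minus strand: ctcccgcgccagtgActgcctaaggaccg
Atoh8, chr6:72235564-72235592, minus strand: tgctcgggcggcctGggctcgggaggcgg
Rnf213, chr11:119390084-119390112, plus strand: tcatcgaagcgcgcCagtccgcgcgggcg
Luzp1, chr4:136469776-136469804, plus strand: cctgagcaggcgccGgccgctgggagcgg
Gnas, chr2:174327769-174327797, plus strand: accgcggagcgggtTgcttcaggtggctg

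The site base was A in 4 of these 10 sites, G in 3, T in 2 and C in 1. The letters GGACT were searched on both strands of the whole 300-base window. They were present in 5 of the 8 windows that held a site (2 windows overlap at Gnas) and in 45.5% of all 32851 windows. The 3 Tsc22d1 sites lay 29, 39 and 46 bases after an annotated start inside the span, which itself begins at chr14:76414961. They had high counts in every library. The first of them had 768 and 685 counts in M14KD IP against 741 and 733 in SCR IP, and 504 and 480 in M14KD Input against 476 and 473 in SCR Input. Its IP level was low for its Input level, with a log2 IP over Input of -1.65 in SCR (SE 0.09, edgeR adjusted p = 9.58e-18), and the other two gave -1.55 and -1.64. Low IP over Input was also measured at the Atoh8 site (-1.87, SE 0.16), the Tmcc2 site (-1.33, SE 0.18) and the second Sephs2 site (-0.84, SE 0.13), each past the threshold. The sites in Gnas, Luzp1 and Rnf213 and the first in Sephs2, at -0.35, 0.30, -0.92 and -0.13, did not pass. None of the 10 passed between M14KD and SCR in IP.

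Most of the genes with many sites were not on the role lists used to sort them. Of the lists, RNA and protein turnover held Son (51 sites) and Srrm2 (29), both splicing factors of nuclear speckles, Tnrc6c (29), a scaffold of microRNA silencing, and Rnf213 (33), a very large ubiquitin ligase. That was 4 of 30 listed genes with a site. Cytoskeleton and adhesion held Celsr3 (36), an adhesion receptor of the cadherin family, and Map1b (28), a microtubule-associated protein, 2 of 25. Secretory granule and exocytosis held Chga (31), the granule protein chromogranin A, 1 of 18. The lists of transcription and chromatin regulators (62 genes with a site), of receptors, channels and transporters (19) and of signalling genes (31) held none. Over all genes with a site, 51 of 6335 were among the genes described here. The counts depend on which genes the lists named, and 44 of the 51 genes were on no list, including transcription regulators and receptors.

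Receptors and ligands among those 44 were Il1r1, the interleukin 1 receptor, with the highest number of sites at 64, Hcar1, a receptor for lactate (31), Il6st, the shared signal-transducing chain of the interleukin 6 family (26), and Wnt4, a secreted Wnt ligand (29). Pkd1 (25) makes polycystin 1, Gnas (26) the stimulatory G protein alpha subunit, and Trib1 (25) a pseudokinase. Olfm1 (30) makes a secreted olfactomedin glycoprotein. Disp2 had 33 sites.

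Genes of the cell cycle and genome maintenance were Mki67 (31), the Ki-67 proliferation antigen, Cenpf (26), a kinetochore protein, Hjurp (34), the chaperone that loads the centromeric histone, Fignl1 (29), an AAA ATPase of recombination, and Rhno1 (25), a DNA damage checkpoint protein. Transcription and RNA genes were Maf (27), a bZIP factor known to activate the glucagon gene, Atoh8 (28), a basic helix-loop-helix factor, Tsc22d1 (32), a leucine zipper regulator, Zfp516 (29) and Zdbf2 (47), zinc finger genes of which Zdbf2 is imprinted, Ankrd11 (25), a chromatin regulator, Gtf3c4 (27), a subunit of the RNA polymerase III factor TFIIIC, Polr2m (27), which associates with RNA polymerase II, Hnrnpa0 (30), an RNA-binding protein, and Ddx24 (25), a DEAD-box helicase.

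Secretory pathway and glycan genes were Chpf (42), which polymerises chondroitin, Chst10 (25), a sulfotransferase, Slc35b4 (25), a nucleotide sugar transporter, Mia3 (31), which exports bulky cargo from the endoplasmic reticulum, Trappc9 (39), a subunit of a vesicle tethering complex, and Sh3bp4 (33), an endocytic adaptor. Protein turnover and stress genes were Usp10 (27), a deubiquitinase, Fem1a (29), a substrate receptor of cullin ubiquitin ligases, Trim62 (27), a ubiquitin ligase, Ppp1r15b (26), which directs protein phosphatase 1 to eIF2α, and Sephs2 (27), which makes selenophosphate for selenoproteins. Camsap2 (27) caps microtubule minus ends, and Luzp1 (35) is a protein of actin and centrosomes. D17H6S56E-5 (51), Thap12 (32), Zcchc14 (30), Soga1 (29), Mfsd5 (27), Tmcc2 (27) and Btbd9 (26) completed the 51.

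Just inside the threshold, 7 genes had 25 sites and 5 had 26. Just outside it, 13 genes had 24 sites (2510039O18Rik, Ahctf1, Bag5, Baz1b, Cnst, Kbtbd2, Lrrc10b, Mesd, Nfe2l1, Nol9, Phf3, Stim2 and Tapt1) and 14 had 23 (Cdk13, Gcg, Gpat4, Hs6st1, Morc2a, Nceh1, Pgap4, Pi4k2a, Slc1a4, Spen, Tab2, Tmem185b, Wdr6 and Wnk1). A minimum of 20 sites would have given 120 genes and a minimum of 30 would have given 21. When sites were thinned to 1 per 100 bases, only 2 genes, Son and Zdbf2 with 25 sites each, kept 25 or more, and Il1r1 kept 24.

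Sites in the same gene were close together, so they are not independent measurements and neighbours may count the same reads. The median distance between neighbouring sites was 48 bases in the 51 genes and 55 bases in other genes, and 67.6% of distances were 100 bases or less against 64.3%. The densest 1000 bases of a gene held between 6 sites (Gnas and Ankrd11) and 29 (D17H6S56E-5), with a median of 14. All 25 sites of Rhno1 lay within 1000 bases, as did 25 of the 30 sites of Olfm1. In 13 of the 42 genes of known strand every site lay within 5 kb of the 3′ end of the span. Over these 42 genes 57.2% of sites lay within 5 kb of the 3′ end, against 72.2% in other genes, and the median span was 31369 bases for the 51 genes against 25141.5 for other genes. Exons and untranslated regions could not be assigned.

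Together the 1583 sites took 7.23% and 7.49% of M14KD IP counts against 7.3% and 7.46% of SCR IP counts, and 5.53% and 5.8% of M14KD Input counts against 5.54% and 5.69% of SCR Input counts. The M14KD and SCR libraries overlapped in both kinds, while all 4 IP libraries lay above all 4 Input libraries. The genes were chosen by their number of sites, and IP counts may have entered the calling of sites. The difference between IP and Input is therefore a description.

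Against Input, the sites of these genes went both ways. On the TMM scale, on which the median of all 33356 tested sites was 0.06, 634 of 1578 tested sites were higher in IP than in Input in SCR and 507 were lower (edgeR, adjusted p below 0.05). Over all sites 34% were higher and 33.4% were lower. In M14KD 653 were higher and 479 lower, against 33.8% and 33.1% of all sites. How sites were called is not stated, so IP counts may have entered that choice, and these shares are a description. The split depends on the scale, since with column totals in place of TMM 1023 sites were higher and 244 lower, against 59.1% and 16.8% of all sites, and the median of all sites was 0.77, a shift of the whole table.

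Summed over its sites, the typical gene with many sites stood above the middle of all genes in IP over Input. These genes were chosen by their number of sites, and IP counts may have entered the calling of sites. The gene-level comparison is therefore a description too. The median gene-level log2 value in SCR was 0.36 for the 51 genes against 0.05 over 6221 genes, and 35 of 51 were higher and 6 lower, where 35.9% of all genes were higher and 34.4% lower. With column totals the split was 41 and 2, against 49.2% higher and 25% lower of all genes. The highest were Trappc9 (1.19, SE 0.07), Tnrc6c (1.14, SE 0.09), Fignl1 (1.03, SE 0.11), Fem1a (1.02, SE 0.1) and Usp10 (1.0, SE 0.08). Neighbours in this order differed by less than the larger of their standard errors. The lowest were Chga (-1.85, SE 0.06), Gnas (-1.47, SE 0.07), Polr2m (-0.46, SE 0.06), Tsc22d1 (-0.38, SE 0.06) and Atoh8 (-0.22, SE 0.07). Chga and Gnas differed by more than their errors from each other and from the next, Polr2m. With column totals Polr2m and Tsc22d1 no longer passed, at -0.12 and -0.05, and Atoh8 was above 0, at 0.12.

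**Figure D1:**
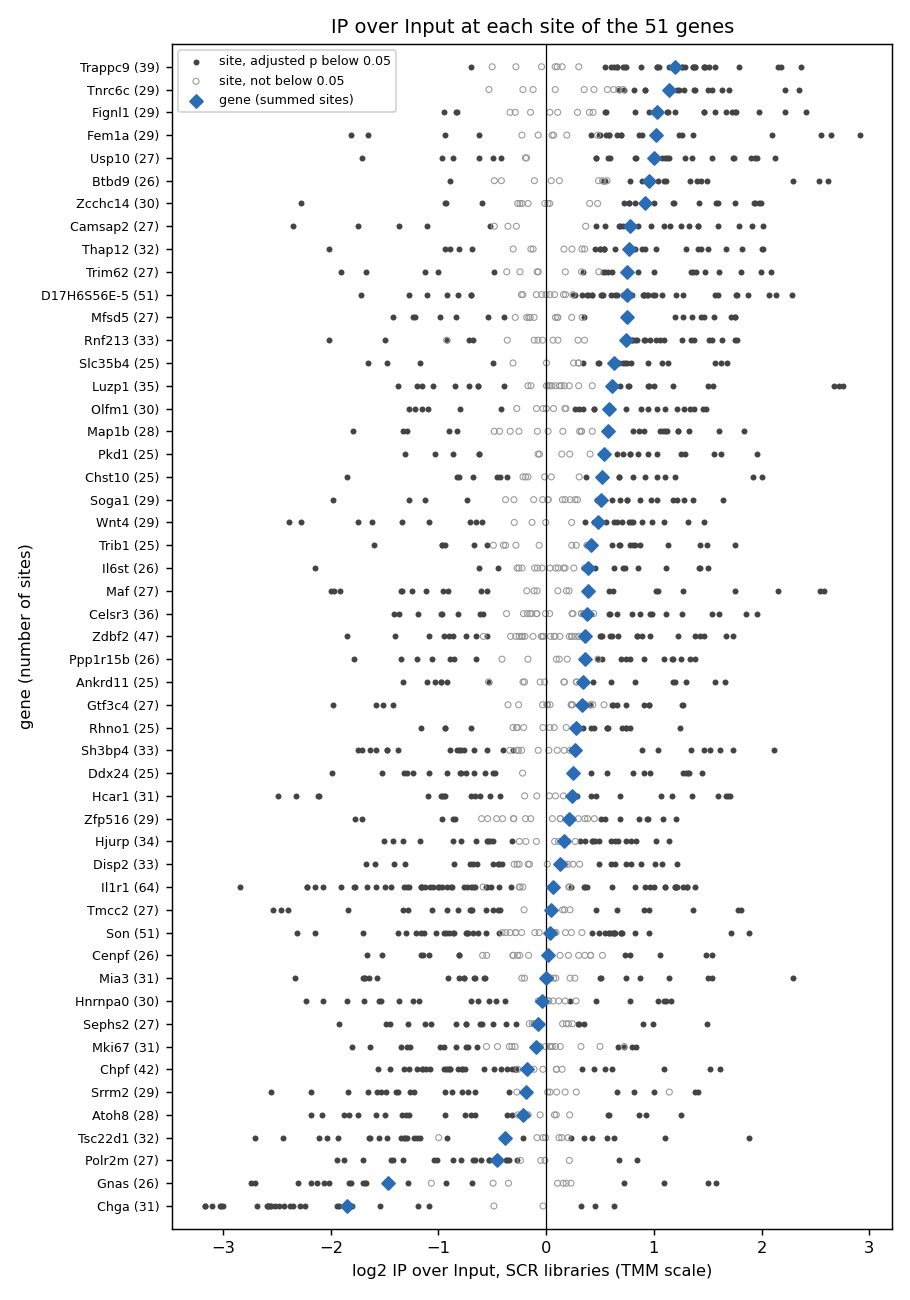
Log2 IP over Input in the SCR libraries (horizontal axis) for every tested site of the 51 genes, which run down the page from Trappc9 to Chga by their gene-level value (diamonds), with filled points for sites past the threshold and open points for the others. Sites of every gene spread over at least 2.4 log2 units, and 50 of the 51 genes had sites called higher and sites called lower.

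Sites of the same gene differed widely. The range from the lowest to the highest site in log2 IP over Input ran from 2.4 in Rhno1 to 4.72 in Fem1a, with a median of 3.58. Tnrc6c was the only gene with no site called lower in SCR, and the other 50 had sites called in both directions. Counts were spread over many sites in most genes. The single strongest site held 42.0% of the SCR IP counts of Gnas and 4.1% to 14.2% in the others, and the 5 strongest together held between 19.7% and 74.1%, with a median of 34%.

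Il1r1, with the most sites, had blocks of sites above 0 and blocks below 0 in log2 IP over Input. Its 64 sites together had 4392 and 4310 CPM in M14KD IP against 4810 and 4351 in SCR IP, and 2568 and 2546 CPM in M14KD Input against 2860 and 2630 in SCR Input. Both M14KD libraries lay below both SCR libraries in Input, and the groups overlapped in IP. Of its sites 51 lay in the last 3.5 kb of the span and the other 13 lay over 5 kb upstream. In SCR IP over Input, 15 neighbouring sites from 2523 to 3044 bases before the 3′ end were all above 0, at up to 1.38, and held 54.3% of the gene's SCR IP counts against 26.7% of its SCR Input counts.

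Nearer the 3′ end of Il1r1, 17 sites at 868 to 2440 bases were all below 0, 6 sites at 770 to 859 bases were all above 0 (0.21 to 1.10), and the last 10, at 217 to 690 bases, were all below 0. The lowest of these, chr1:40315722, had 112 and 105 counts in M14KD IP against 140 and 111 in SCR IP, and 170 and 145 in M14KD Input against 197 and 174 in SCR Input, and its log2 IP over Input in SCR was -2.84 (SE 0.14). Raw IP counts were lower there than Input counts, although the IP libraries were deeper. At the strongest site, chr1:40313579, the counts were 2457 and 2306 in M14KD IP against 2730 and 2381 in SCR IP, and 188 and 210 in M14KD Input against 237 and 218 in SCR Input (1.21, SE 0.1).

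**Figure D2:**
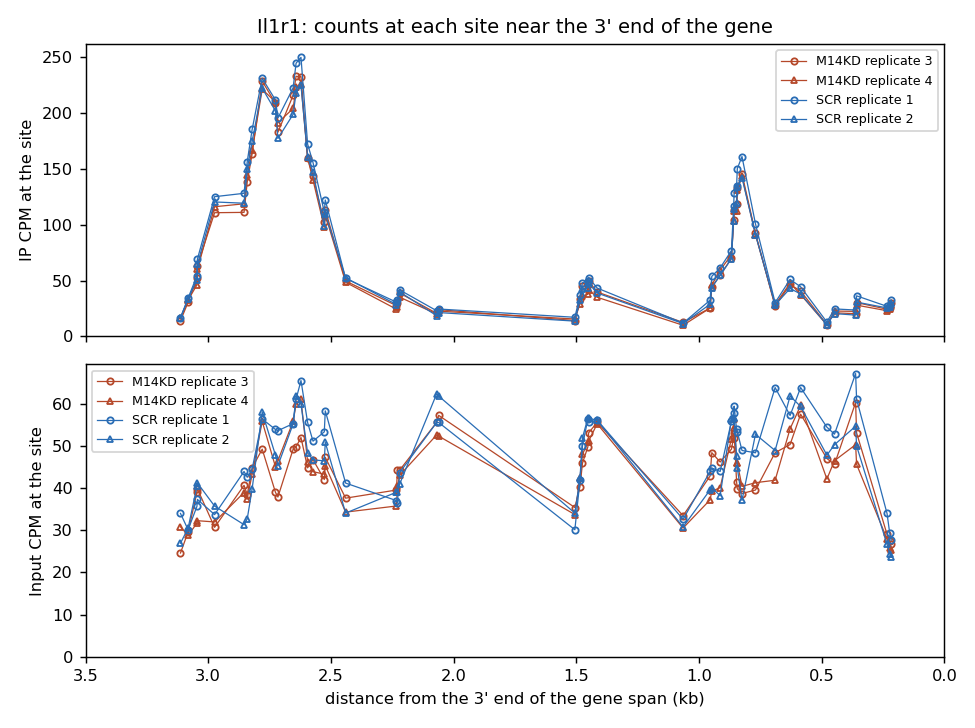
CPM at each Il1r1 site in the IP libraries (upper panel) and the Input libraries (lower panel) against the distance from the 3′ end of the gene span in kb, with M14KD in red and SCR in blue and 1 line per library. IP counts peak around 2622 bases and again near 825 bases before the 3′ end in all 4 libraries, while Input counts stay within a narrower range.

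Of the other genes with the most sites, down to the 3 that tied at 33, Trappc9 is described with Peg13, a noncoding gene in its span. D17H6S56E-5 had 5194 and 5322 CPM in M14KD IP against 5054 and 5390 in SCR IP, and 2047 and 2047 CPM in M14KD Input against 1922 and 1971 in SCR Input, so that the groups overlapped in IP and M14KD lay above SCR in Input. Its sites ran in blocks, with 9 sites at 548 to 1125 bases before the 3′ end below 0 and then blocks of 10, 16 and 13 sites above 0. Son had 1461 and 1392 CPM in M14KD IP against 1366 and 1214 in SCR IP, with M14KD above SCR in both libraries, and 889 and 812 CPM in M14KD Input against 846 and 734 in SCR Input, where they overlapped. Its strongest site, chr16:91656606, had 1039 and 962 counts in M14KD IP against 1010 and 861 in SCR IP (log2 IP over Input in SCR 1.89, SE 0.14).

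Zdbf2 had 1436 and 1258 CPM in M14KD IP against 1456 and 1036 in SCR IP, and 649.6 and 561.6 CPM in M14KD Input against 680.5 and 538.5 in SCR Input. Its SCR libraries were far apart and both M14KD libraries lay between them. Chpf had 2018 and 2234 CPM in M14KD IP against 2156 and 2408 in SCR IP, and 1395 and 1601 CPM in M14KD Input against 1543 and 1685 in SCR Input, with overlap in both. In Chpf 6 sites within 68 bases, 2870 to 2937 bases before the 3′ end, held 27.8% of the SCR IP counts and 12.3% of the SCR Input counts, and 26 of its 42 sites were called lower.

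Celsr3 had 665.1 and 712.1 CPM in M14KD IP against 689.6 and 691.4 in SCR IP, and 286.6 and 298.1 CPM in M14KD Input against 335.4 and 329.9 in SCR Input, so that the groups overlapped in IP and were apart in Input. Luzp1 had 736.9 and 706.2 CPM in M14KD IP against 737.7 and 703.9 in SCR IP, and 301.01 and 301.9 CPM in M14KD Input against 278.7 and 313.7 in SCR Input. A block of 5 Luzp1 sites within 186 bases had log2 IP over Input of 0.77 to 2.76 and held 28.2% of the gene's SCR IP counts against 8.5% of its SCR Input counts. The highest, chr4:136545342, had 533 and 474 counts in M14KD IP against 590 and 531 in SCR IP, and 21 and 26 in M14KD Input against 15 and 19 in SCR Input.

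Hjurp had 1691 and 1719 CPM in M14KD IP against 1684 and 1702 in SCR IP, and 913.8 and 939.4 CPM in M14KD Input against 960.3 and 933.3 in SCR Input, overlapping in both. Disp2 had 999.6 and 1059 CPM in M14KD IP against 1064 and 1209 in SCR IP, and 522.1 and 545 CPM in M14KD Input against 624.9 and 678.4 in SCR Input. Both M14KD libraries of Disp2 lay below both SCR libraries in each kind.

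Rnf213 had 465.3 and 483.5 CPM in M14KD IP against 473.8 and 500.4 in SCR IP, and 156.6 and 160.5 CPM in M14KD Input against 178.6 and 187.2 in SCR Input, so that the groups overlapped in IP and M14KD lay below SCR in Input. Sh3bp4 had 1278 and 1415 CPM in M14KD IP against 1475 and 1610 in SCR IP, and 623.6 and 765.7 CPM in M14KD Input against 779.5 and 823.04 in SCR Input. Both of its M14KD libraries lay below both SCR libraries in each kind, at a log2 value of -0.18 in IP (SE 0.075, edgeR adjusted p = 0.309).

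Trappc9 was a special case of naming, since 31 of its 39 sites also lay in the span of Peg13, an imprinted long noncoding RNA inside the gene (chr15:72805602-72810324). The strand of a site is not given, so reads of the 2 cannot be told apart. The 31 sites had 977.6 and 988.8 CPM in M14KD IP against 1056 and 1154 in SCR IP, and 261.4 and 262.3 CPM in M14KD Input against 285.1 and 311.2 in SCR Input, with M14KD below SCR in every library of each kind. The 8 sites outside Peg13 had only 40.8 and 39.97 CPM in M14KD IP against 42.3 and 42.4 in SCR IP. Of the 31 sites 29 were above 0 in log2 IP over Input in SCR and 26 were called higher, so the gene-level value of Trappc9 rests mainly on positions within Peg13.

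Ankrd11 was similar in naming only, with 24 of its 25 sites inside the noncoding Gm39273. Of these 24 sites 12 were above 0 and 12 below 0 in log2 IP over Input in SCR, and 8 were called higher. In Gnas 7 of 26 sites lay in the antisense RNA Gnasas1, and all 7 were below 0 in log2 IP over Input in SCR, from -2.30 to -1.07. The 19 Gnas sites elsewhere ranged from -2.74 to 1.58. Rnf213 had 6 sites in A930037H05Rik, and Srrm2 and Zdbf2 had 1 site each in Gm52285 and 1700039I01Rik. In all 70 sites of the 51 genes (4.42%) lay in a noncoding span as well, against 3.34% in other genes.

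Chga and Gnas, the lowest in IP over Input, were also abundant in Input. Chga had 7916 and 8486 CPM in M14KD IP against 7507 and 7850 in SCR IP, and 18147 and 19161 CPM in M14KD Input against 16960 and 17857 in SCR Input, so that M14KD lay above SCR in both. Of its 31 sites 26 were called lower in IP than in Input and 3 were called higher. Gnas had 3010 and 3363 CPM in M14KD IP against 3143 and 3179 in SCR IP, and 5387 and 5830 CPM in M14KD Input against 5303 and 5695 in SCR Input. Its strongest site, chr2:174330121, had 12933 and 13920 counts in M14KD IP against 14245 and 14274 in SCR IP, at a log2 IP over Input in SCR of 0.19 (SE 0.09). The lowest Gnas site, 148 bases before the 3′ end, was at -2.74 (SE 0.09).

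Distance from the 3′ end was one measure on which IP over Input varied within these genes. The median log2 value in SCR was -0.28 over the 47 sites within 250 bases of the 3′ end, -0.42 over 57 sites at 250 to 500 bases, -0.21 over 128 at 500 to 1000, 0.12 over 249 at 1000 to 2000, 0.46 over 276 at 2000 to 5000 and 0.02 over 565 farther away. In other protein-coding genes the medians at the same distances were -0.42, -0.21, -0.12, 0.11, 0.3 and 0.07. Both sets were lowest within 500 bases of the end and highest at 2000 to 5000 bases. In the 51 genes 53.3% of sites at 2000 to 5000 bases were called higher, against 41.1% in other genes, and the difference was not tested.

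**Figure D3:**
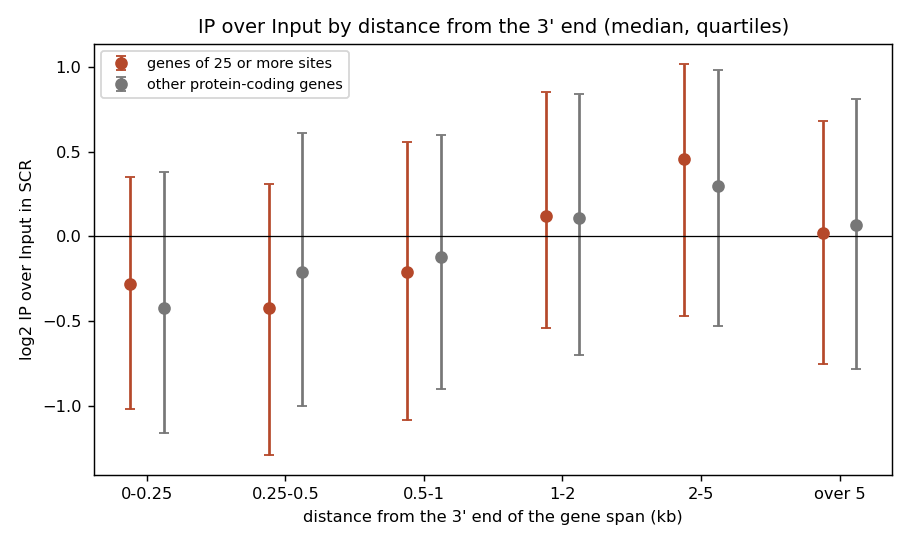
Median log2 IP over Input in the SCR libraries (points) with lower and upper quartiles (bars) by distance from the 3′ end of the gene span in kb, for the genes of 25 or more sites in red and other protein-coding genes in grey. The median of the genes with many sites goes up from -0.42 at 0.25 to 0.5 kb to 0.46 at 2 to 5 kb.

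With more sites per gene, counts per site were higher, while IP over Input was highest at 10 to 24 sites. The median SCR count per site was 59 in IP and 16.5 in Input for genes of 1 site, 116 and 26 for 2 to 4 sites, 175 and 31.5 for 5 to 9, 231.5 and 39 for 10 to 24, and 285 and 52.5 for the 51 genes. The median log2 IP over Input in SCR was -0.58, -0.20, 0.07, 0.24 and 0.13 in the same order. Depth moved with the number of sites, and its part in the order of IP over Input was not tested.

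Few of these sites differed between M14KD and SCR. In IP, 2 of 1579 tested sites passed between M14KD and SCR, 1 higher and 1 lower (edgeR, adjusted p below 0.05 over all sites). The background was 215 of 33348 sites, or 0.645%, so the share among these genes was not above it. An unadjusted p under 0.05 was reached by 183 of the 1579, or 11.6% against 13.3% of all sites. The median log2 change was -0.01, against 0.01 over all sites. The call count rests on the libraries: without replicate 1 it was 77 (63 higher), in a fit that called 946 sites higher and 476 lower of 33429 in all, without replicate 4 it was 1, and without replicate 3 it was 0. Under DESeq2 it was 0, with adjusted p not given for 983 of the sites, and with 1 site per 100 bases it was 0.

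The site that was higher lay in Fignl1, at chr11:11801694, 1406 bases from the 3′ end. It had 501 and 472 counts in M14KD IP against 396 and 359 in SCR IP, with no overlap, and 39 and 38 in M14KD Input against 45 and 35 in SCR Input, which overlapped. Its IP log2 fold change was 0.44 (SE 0.1, edgeR adjusted p = 0.0433), and its Input value was 0.00 (SE 0.24). Its interaction value, 0.43 (SE 0.25), did not pass. Summed over all Fignl1 sites, the change was 0.21 in IP (SE 0.09) and 0.22 in Input (SE 0.115), with an interaction of -0.01 (SE 0.16). The lower site lay in Tmcc2, an endoplasmic reticulum membrane protein, at chr1:132357300, 985 bases from the 3′ end. It had 815 and 887 counts in M14KD IP against 1121 and 1205 in SCR IP, again with no overlap, and 87 and 106 in M14KD Input against 109 and 138 in SCR Input. Its IP log2 fold change was -0.38 (SE 0.09, edgeR adjusted p = 0.0468) and its Input value was -0.29 (SE 0.16, adjusted p = 0.633). Both sites were called on these IP counts, so the lack of overlap in IP goes with the call and adds no support. Neither passed under DESeq2, without replicate 2, 3 or 4, or with 1 site per 100 bases, with log2 values of 0.39 to 0.46 for Fignl1 and -0.46 to -0.29 for Tmcc2 in those fits.

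In Input, 0 of 1561 tested sites passed with edgeR, where 0.103% of all sites did (31 of 30147). An unadjusted p under 0.05 was reached by 117, or 7.5% against 8.7% of all sites, and DESeq2 also called 0. An interaction over all 8 libraries, which asks whether IP over Input differed in M14KD, passed at 0 of 1578 sites with edgeR and with DESeq2, where the share over all 33356 sites was 0%. The unadjusted edgeR p was under 0.05 at 60, or 3.8% both here and over all sites. With the replicate number as a block it was under 0.05 at 98, against 1999 of all 33356 sites, and still none passed.

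Counts summed over the sites of a gene gave no call among the 51 genes. In IP 0 of 51 passed with edgeR and with DESeq2, where 0.129% of all genes did (8 of 6211), and 8 of the 51 had an unadjusted edgeR p under 0.05, or 15.7% against 14.7% of all genes. In Input 0 of 51 passed, where 0.0175% of all genes did (1 of 5704). An unadjusted edgeR p under 0.05 was reached by 13, or 25.5% against 10.1% of all genes. This excess rests on the libraries, since it was not seen without replicate 3, a fit with a single M14KD library. Nor is the share of all genes matched for depth. The median SCR Input count per site was 52.5 here, against 39 for genes of 10 to 24 sites and 16.5 for genes of 1 site. The part of depth was not tested. In the interaction 0 of 51 passed and 0% of all 6221 genes did, with 1 gene, Usp10, at an unadjusted p under 0.05. With the replicate block 7 of the 51 and 418 of all 6221 genes reached that, and again none passed. The lowest adjusted p among the 51 was 0.23 for IP, 0.247 for Input and 1 for the interaction. For a gene's log2 value the median SE was 0.07 within IP, 0.09 within Input and 0.11 for the interaction, and 45 of the 51 IP changes were under 0.2 in size.

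Lower values in M14KD IP with the lowest p were those of Pkd1, Ppp1r15b and Tmcc2. Pkd1 had 280.8 and 315.8 CPM in M14KD IP against 341.6 and 387.9 in SCR IP, and 101 and 132 CPM in M14KD Input against 154.3 and 161.1 in SCR Input, without overlap in either. Its log2 value was -0.27 in IP (SE 0.09, edgeR adjusted p = 0.23) and -0.44 in Input (SE 0.13, adjusted p = 0.26). Ppp1r15b had 473.1 and 583.1 CPM in M14KD IP against 623.5 and 679.5 in SCR IP, and 221.6 and 291.7 CPM in M14KD Input against 301.4 and 335.4 in SCR Input, at -0.29 in IP (SE 0.1, adjusted p = 0.259). Tmcc2 had 1192 and 1325 CPM in M14KD IP against 1399 and 1559 in SCR IP, and 730.7 and 791.04 CPM in M14KD Input against 858.3 and 936.6 in SCR Input, at -0.22 in IP (SE 0.08, adjusted p = 0.273). In these 3 genes M14KD lay below SCR in every library of both kinds. They were picked by their IP values, so the separation in IP largely follows from that choice. The share of all genes separated in this way was not counted.

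Higher values in M14KD IP with the lowest p were those of Tsc22d1, Fignl1 and Mki67. Tsc22d1 had 4198 and 4128 CPM in M14KD IP against 3718 and 3848 in SCR IP, and 3420 and 3422 CPM in M14KD Input against 3048 and 3135 in SCR Input, at 0.15 in both (SE 0.06, edgeR adjusted p = 0.29 in IP and 0.434 in Input). Fignl1 had 1028 and 910.4 CPM in M14KD IP against 909.1 and 781.4 in SCR IP, at 0.21 (SE 0.09, adjusted p = 0.307), with the M14KD replicate 4 close to SCR replicate 1. Mki67 had 473.1 and 376.4 CPM in M14KD IP against 394.6 and 264.2 in SCR IP, at 0.38 (SE 0.17, adjusted p = 0.331), with overlap and with the SCR libraries far apart.

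Replicates of 1 group lay far apart in some genes, such as Mki67, Cenpf and Zdbf2, and close together in others, such as Hjurp. In these libraries fewer cells that make an RNA and less RNA per cell cannot be told apart. Cenpf, named after its values were seen, had 320.6 and 263.7 CPM in M14KD IP against 282 and 198.5 in SCR IP, and 204.4 and 159.9 CPM in M14KD Input against 189.4 and 109.4 in SCR Input. Without replicate 1, 3 genes passed in IP, Cenpf (0.58), Mki67 (0.70) and Zdbf2 (0.40), and 2 passed in Input, Cenpf (0.73) and Mki67 (0.68). Over all genes those fits called 91 higher and 36 lower of 6239 in IP, and 33 higher and 26 lower of 5821 in Input. Without replicate 4, Cenpf (0.43), Mki67 (0.53) and Ppp1r15b (-0.45) passed in IP, where 96 genes were called higher and 55 lower of 6242 in all. Each of these fits left a group with 1 library, which is assumed to vary like the others.

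Input values with the lowest p were lower for Disp2 (-0.29, SE 0.08, edgeR adjusted p = 0.247), Pkd1 and Il6st (-0.31, SE 0.09, adjusted p = 0.281), and higher for Tsc22d1, Mki67 (0.35, SE 0.16) and Thap12 (0.17, SE 0.09, adjusted p = 0.536). Il6st had 240.7 and 276.3 CPM in M14KD Input against 309.7 and 331.2 in SCR Input. In the interaction the lowest p above 0 belonged to Usp10 (0.26, SE 0.11), Celsr3 (0.19, SE 0.1) and Il6st (0.22, SE 0.12), and below 0 to Tnrc6c (-0.13, SE 0.12), D17H6S56E-5 (-0.06, SE 0.08) and Srrm2 (-0.05, SE 0.1), each at an edgeR adjusted p of 1. With the replicate block Usp10 stayed at 0.26 (SE 0.06, adjusted p = 0.409). It had 337.8 and 366.4 CPM in M14KD Input against 404.2 and 447.5 in SCR Input, while its IP values of 1274 and 1400 CPM in M14KD and 1301 and 1415 CPM in SCR overlapped.

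Within several genes nearly every site had a log2 IP value on the same side of 0, although no gene-level value passed. All tested sites were above 0 in Fignl1 (29) and Cenpf (26), and all 25 were below 0 in Pkd1. In Mki67 30 of 31 sites were above 0, in Ppp1r15b 25 of 26 and in Tmcc2 26 of 27 were below 0, and in Chpf 40 of 42 were below 0 at a gene-level value of -0.09 (SE 0.08). Sites of 1 gene share its RNA and may share reads, so these counts are no replicates of the change.

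**Figure D4:**
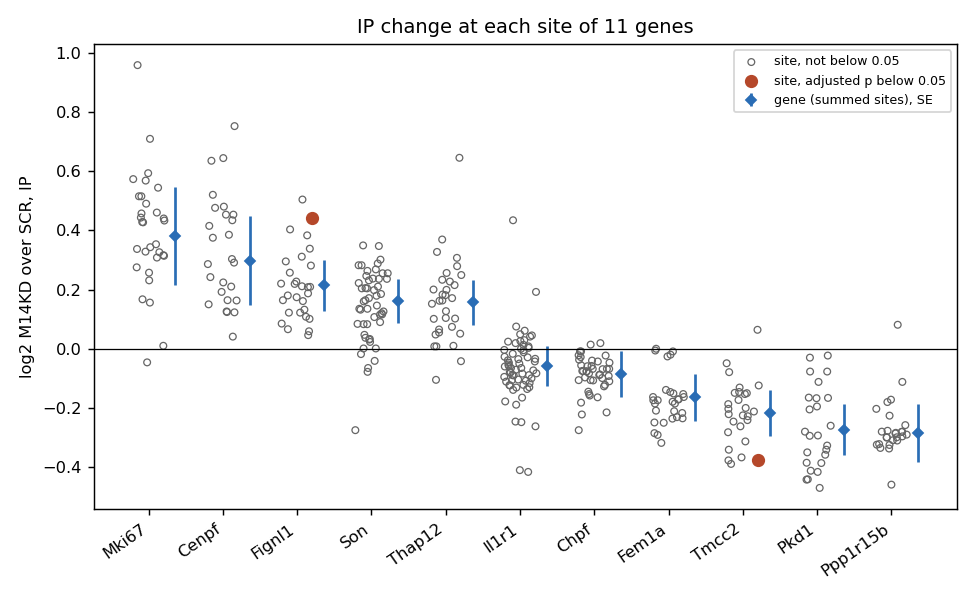
Log2 IP change of M14KD over SCR at each tested site (open points) of 11 genes, with the 2 sites past the threshold filled in red and the gene-level value with its SE as blue diamonds. Sites of Cenpf and Fignl1 all lie above 0 and those of Pkd1 all lie below 0, while those of Il1r1 lie on both sides.

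IP and Input values had the same sign in 43 of the 51 genes, and the share over all genes was not computed. In all, 29 had values below 0 in both and 14 had values above 0 in both, 7 were above 0 in IP and below 0 in Input, and none was the other way round. The remaining gene, Rhno1, had an IP value that rounded to 0. IP values ran from -0.29 to 0.38 and Input values from -0.44 to 0.35. In Input 37 of 51 genes (72.5%) were below 0, against 50.5% of 5704 genes, with a median of -0.08 against 0.00. In the interaction 36 of 51 were above 0 and 29.4% below it, against 49.8% of all genes below 0, with a median of 0.03 against 0.00. The Input shift was graded with the number of sites. Per site, the median Input change was 0.051 for genes of 1 site, 0.022 for 2 to 4, 0.012 for 5 to 9, -0.021 for 10 to 24 and -0.043 for the 51 genes. IP and Input libraries of the same number were related, and these counts are a description without a test.

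**Figure D5:**
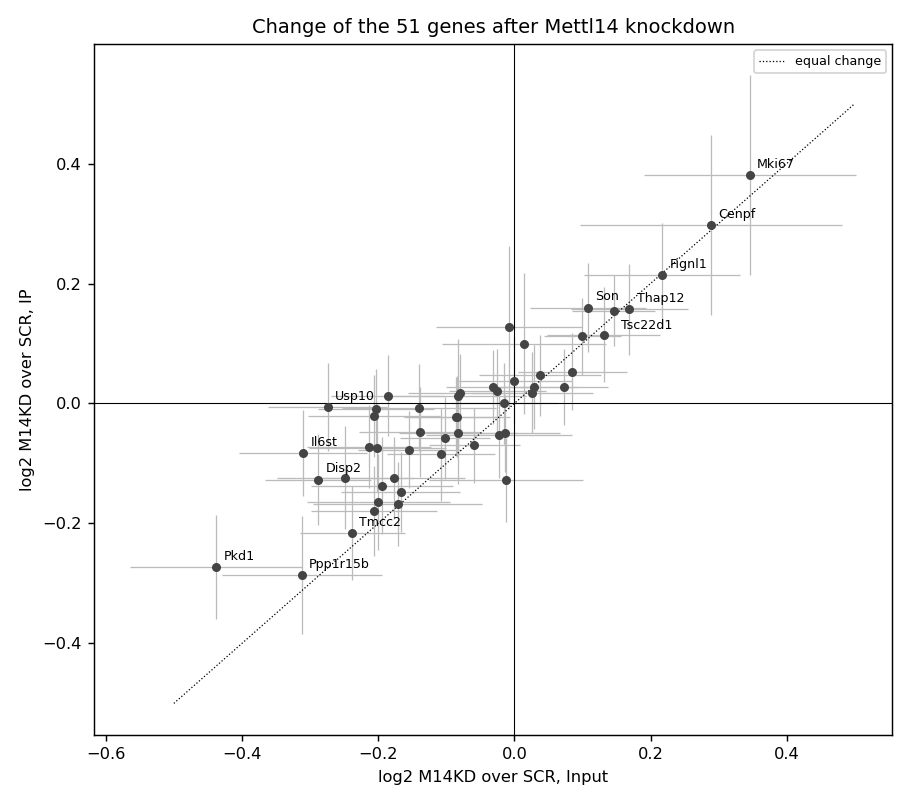
Log2 change of M14KD over SCR in Input (horizontal axis) and in IP (vertical axis) for the 51 genes, with SE bars and a dotted line of equal change. Most genes lie near the line, from Pkd1 and Ppp1r15b at the lower left to Cenpf and Mki67 at the upper right, and Usp10 lies left of it.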

How the data were processed

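m6A-eCLIP IP and Input libraries of αTC1-6 cells were analysed from 1 table of counts at 33774 sites in 8 libraries. Per the submitters' processing notes, the authors used UMI-tools, cutadapt and STAR with mm10, and the deposited counts are whole numbers, not normalized. The sources used here give no versions, site calling, counting window or strand, nor whether counts are of unique molecules. Sites were named by RefSeq spans of the same assembly, and 50 sites were over 1 base long.

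Per site, and per gene after summing, edgeR 4.0.16 in R 4.3.3 was run on the whole table (filterByExpr, TMM, robust quasi-likelihood F-test). P-values were Benjamini-Hochberg adjusted and called below 0.05. M14KD and SCR were compared within IP and within Input. The interaction and IP over Input came from 1 model of all 8 libraries. SE is the size of the log2 value divided by the root of F. Tests were also run on simulated counts, drawn independently for each site or gene. The simulation held no reads shared by neighbouring sites and no relation of IP to Input libraries, so it cannot show how the tests behave under these. Alternatives were DESeq2 1.42.0, other scalings and filters, 1 model of every library, leaving out single replicates, 1 site per 100 bases and the replicate block. Gene-level IP over Input was added to the alternatives later.

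The members, role lists and naming rule were chosen with earlier results of these data known. The rule named every gene with its sites, gave library values for the 10 genes with the most sites (12 here, since 3 tied at 33 sites) and for called sites, the 5 highest and lowest genes in IP over Input, the 3 lowest p each way per comparison, and Mettl14. IP and Input libraries of the same number deviated together (correlation 0.224 in SCR and 0.129 in M14KD, over 31921 sites), so the numbers pair them. Some marker genes are not reported here.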

Additional observations from a re-analysis of the deposited data

How the results depend on the processing

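Of 98 alternative values of the main counts 86 stayed within 1.5 times, where 0 against 0 was taken as staying. Every interaction count and most Input counts were 0 against 0. For IP over Input with 1 site per 100 bases, the share of tested sites called was compared in place of the count. Of 346 values for the named genes and sites 323 kept their direction and side of the threshold. The number of genes was 120 at a minimum of 20 sites, 21 at 30 sites and 2 with 1 site per 100 bases, the last by construction. Calls among sites in IP were 0 under DESeq2 and 0 with 1 site per 100 bases, against 2, and ranged from 0 to 77 when a replicate was left out. Calls in Input ranged from 0 to 1 among sites, the 1 in Atoh8 without replicate 2, and from 0 to 2 among genes, and calls among genes in IP from 0 to 3. Direction changed in 4 results. Srrm2 in the gene-level interaction ranged from -0.106 to 0.03 with a replicate left out, above 0 without replicate 4. The Fignl1 site in Input was -0.015 with column totals and ranged from -0.167 to 0.193 with a replicate left out, below 0 without replicates 2 and 4. The Tmcc2 site in the interaction ranged from -0.204 to 0.009, above 0 without replicate 1, and Atoh8 in IP over Input was 0.115 with column totals. The cause of these was not tested. The replicate block gave 1184 called sites in IP over Input in SCR, 1185 in M14KD and 0 in the interaction, against 1141, 1132 and 0, so no count of calls moved by over 1.5 times, while unadjusted p under 0.05 in the interaction went to 98 sites and 7 genes, against 60 and 1. Input libraries held fewer counts, which limits what Input and the interaction can show.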
